A study of Mus musculus with 12 samples.

Results

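Genes of the collecting duct principal cell were followed in mouse kidneys with an induced *LIN28B* transgene or without part of the *let-7* family. The 10 genes were chosen by name for their known roles, out of 24062 gene symbols counted, but with earlier results of these data known. They are the water channels *Aqp2*, *Aqp3* and *Aqp4*, the vasopressin receptor *Avpr2*, the sodium channel subunits *Scnn1a*, *Scnn1b* and *Scnn1g*, the steroid enzyme *Hsd11b2* and the transcription factors *Gata3* and *Elf5*. RNA of 12 whole kidneys at postnatal day 3 was sequenced, with 3 kidneys in each of 4 groups. In each group kidneys 1 and 2 came from litter 1 and kidney 3 from litter 2. Mutants and controls of a model with the same litter number were taken to share a litter, which the labels do not state. *LIN28B* *Wt1* mice (C57BL/6) carry a doxycycline-dependent human *LIN28B* transgene that is switched on in cells with *Wt1-Cre* activity, which include nephron progenitors, and the study induced it with a doxycycline pulse late in gestation. Their controls (C57BL/6) are littermates labelled as wild type, and the transgenes each control carried were not given. The *let-7* KO mice (mixed CD1 and C57BL/6) lack *let-7a1*, *let-7d* and *let-7f1* in every cell from conception, and the *let-7* WT kidneys come from littermates of the same mixed strain. Strain and experiment therefore go together and cannot be told apart between the models.

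Principal cells line the collecting duct, the last part of the tubule, which grows from the ureteric bud and not from the nephron progenitors. Vasopressin binds the receptor *Avpr2*, raises cyclic AMP and sends *Aqp2* to the apical membrane, while *Aqp3* and *Aqp4* let water leave across the basolateral side. Aldosterone acts through the mineralocorticoid receptor *Nr3c2* on the epithelial sodium channel ENaC, built from an alpha, a beta and a gamma subunit encoded by *Scnn1a*, *Scnn1b* and *Scnn1g*. *Hsd11b2* inactivates glucocorticoids and so keeps that receptor selective for aldosterone. *Gata3* is needed for ureteric bud outgrowth, and *Elf5* is an ETS factor of principal cells.

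Both models bear on *let-7*, a family of miRNAs that recognise messenger RNAs by a seed at bases 2 to 8. The mature sequences of the 3 genes deleted in *let-7* KO mice (RefSeq, GRCm38.p6) are shown with the seed in capitals. All 3 lie on the minus strand of chromosome 13, at chr13:48536078-48536099, chr13:48537889-48537910 and chr13:48538239-48538260.
let-7d-5p: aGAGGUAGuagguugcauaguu
let-7f-5p: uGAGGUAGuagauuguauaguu
let-7a-5p: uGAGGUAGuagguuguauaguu
The seed is the same 7 letters in all 3. Its complement on the sense strand of a target is CTACCTC, and TACCTCA pairs with bases 2 to 7 and adds an A opposite base 1, so that the motifs overlap by 6 letters. The longest annotated 3′ UTR of each principal cell gene was searched for both on the sense strand. In 3 of 10 genes a match was found, and in 15.3% of 19282 genes with a 3′ UTR (9.33% for CTACCTC, 10.1% for TACCTCA). The gene for the vasopressin receptor had CTACCTC at base 789 of the 3′ UTR (chrX:73894643-73894649, plus strand) and the gene for the gamma subunit had TACCTCA at base 337 (chr7:121767886-121767892, plus strand). Both are shown with 10 bases on each side and the match in capitals.
Avpr2: ccttcctttgCTACCTCccaagagacc
Scnn1g: gcccagcttgTACCTCAagcacatgat
*Aqp4* held 1 match to each motif. As the motifs overlap, both could lie at the same place, and the positions in *Aqp4* are not reported here. No match was found in *Scnn1a* or *Hsd11b2*, the genes with the lowest p-values below, nor in *Aqp2*, *Aqp3*, *Scnn1b*, *Gata3* or *Elf5*. A match is a description of the letters and was not tested as a site.

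Total counts per kidney ranged from 39926235 to 61872736. At that depth 3 counts correspond to 0.049 to 0.0825 CPM (the read count as a rate per library, scaled by TMM-normalized library size), and each principal cell gene had between 311 and 126958 counts in a kidney. Mouse *Lin28b* had 0, 18 and 33 counts in *LIN28B* controls and 232, 224 and 71 in *LIN28B* *Wt1* kidneys, and how reads of the human transgene were counted was not given. By qRT-PCR the study saw endogenous *Lin28b* mRNA unchanged in these mice at the times it tested. The precursor of *let-7d* had 0, 19 and 35 counts in *let-7* WT kidneys and 0 in each *let-7* KO kidney. One *let-7* WT kidney was thus also at 0, so this row does not check every label. Markers of principal cells were detected in every kidney (*Aqp2*, *Aqp3*, *Scnn1g*, *Hsd11b2* and *Fxyd4*), together with those of nephron segments, progenitors and urothelium, since whole kidneys were used. In whole kidneys, fewer cells of a type and less RNA per cell cannot be told apart. Call thresholds are the unadjusted p below 0.01 used in the study and, separately, an adjusted p below 0.05 (edgeR's quasi-likelihood test, Benjamini-Hochberg over all genes tested).

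Levels of different genes were compared per kilobase of the longest annotated transcript, as means over the 12 kidneys. *Aqp2* led with 939 CPM per kb, followed by *Aqp3* with 124. *Hsd11b2* (37.4), *Scnn1b* (37), *Gata3* (25.4) and *Scnn1g* (23.3) came next, and *Avpr2* (12.4), *Aqp4* (8.89), *Scnn1a* (7.61) and *Elf5* (4.73) were the lowest. Only the 2 most abundant stood apart from all others in every kidney. The lowest *Aqp2* value was 442 CPM per kb, above the highest *Aqp3* value of 154.9, and the lowest *Aqp3* value was 94.5, above the highest value of *Hsd11b2* of 63.3. From *Hsd11b2* downwards each gene overlapped its neighbour in the order. The alpha subunit was the least abundant ENaC subunit in every group, at 9.45 ± 2.04 CPM per kb in *LIN28B* controls and 9.52 ± 0.671 in *let-7* WT (SD, n = 3), against 40.2 ± 1.45 and 39.6 ± 5.23 for the beta subunit.

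All 10 genes passed the filter on low counts in both models. In *LIN28B* *Wt1* kidneys 1 of 10 passed p below 0.01, which 7.33% of all 15793 genes tested did, and 0 of 10 passed an adjusted p below 0.05, which 1.23% of all genes did. With the unadjusted p below 0.05 it was 4 of 10 (18% of all genes), and DESeq2 gave 1 gene, *Scnn1a*, with an adjusted p below 0.05 (7.99% of all genes). The log2 fold change was negative for 9 of 10, with a median of −0.30, against −0.02 over all genes tested. In *let-7* KO kidneys 1 of 10 passed p below 0.01, against 2.73% of all 15500 genes, and 0 of 10 passed an adjusted p below 0.05, against 0.0194%. With the unadjusted p below 0.05 it was 3 of 10 (10.8% of all genes), and DESeq2 gave 0 genes with an adjusted p below 0.05 (1.04% of all genes). The median there was 0.04, with 5 genes on each side of 0. The gene called in *LIN28B* *Wt1* kidneys was *Scnn1a* and the gene called in *let-7* KO kidneys was *Hsd11b2*.

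**Figure D1:**
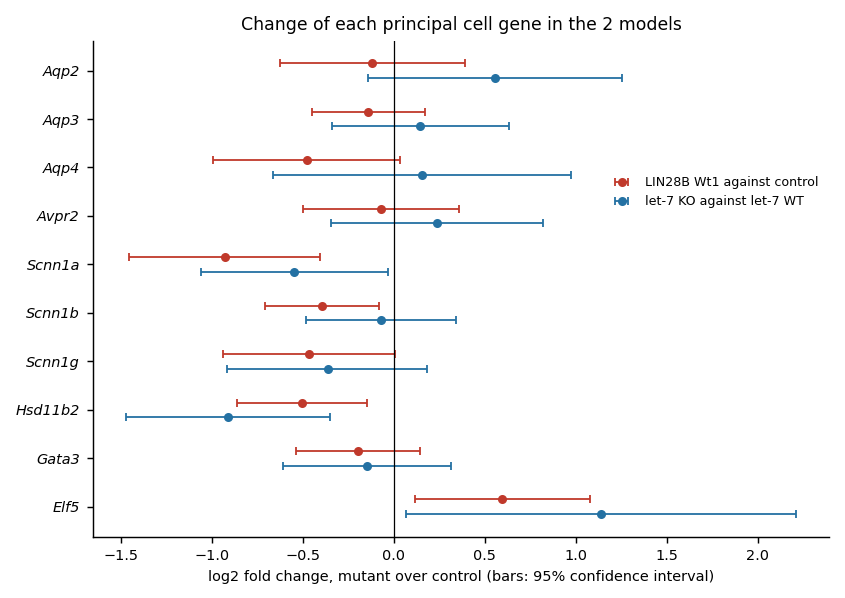
Log2 fold change of each of the 10 principal cell genes (x axis) in *LIN28B* *Wt1* against control (red) and *let-7* KO against *let-7* WT (blue), with 95% confidence intervals from edgeR as bars. In both models the intervals of *Scnn1a* and *Hsd11b2* lie below 0 and that of *Elf5* above 0, while the *Aqp2* and *Aqp3* intervals cross 0.

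*Scnn1a*, which encodes the pore-forming alpha subunit of ENaC, was lower in both mutants. *LIN28B* control kidneys had 40.64, 26.5 and 32.04 CPM, and *LIN28B* *Wt1* kidneys had 14.26, 16.76 and 20.86. The groups did not overlap, and the gene passed p below 0.01 and fell by 0.93 on the log2 scale (SE 0.24, 95% confidence interval −1.46 to −0.40, adjusted p = 0.0869 by edgeR), to 0.525 of the control level. The *let-7* WT kidneys had 34.72, 34.61 and 30.6 CPM and the *let-7* KO kidneys 23.51, 18.78 and 26.35. These groups did not overlap either, with a log2 fold change of −0.55 (SE 0.23, interval −1.06 to −0.03) that did not pass the threshold (adjusted p = 0.431 by edgeR). Within litters the differences were −1.09 and −0.62 in the *LIN28B* experiment and −0.72 and −0.22 in the *let-7* experiment. Mutant kidneys were thus below the controls with the same litter number in both litters of both models. The *LIN28B* call was lost without control kidney 1 (log2 fold change −0.75), *LIN28B* *Wt1* kidney 1 (−0.81) or *LIN28B* *Wt1* kidney 2 (−0.90).

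*Scnn1b* encodes the beta subunit. Its values were 99.81, 106.1 and 106.5 CPM in *LIN28B* controls and 86.5, 79.29 and 71.26 in *LIN28B* *Wt1* kidneys. No mutant kidney reached a control, and the log2 fold change was −0.39 (SE 0.14, adjusted p = 0.177 by edgeR), a smaller difference that did not pass the threshold. In the *let-7* experiment the values were 116.3, 89.29 and 101.8 CPM in WT and 111.4, 84.65 and 97.34 in KO. The groups overlapped almost entirely, with a log2 fold change of −0.07 (interval −0.48 to 0.34).

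*Scnn1g* encodes the gamma subunit and lies next to *Scnn1b* on the same strand of chromosome 7. *LIN28B* controls had 94.73, 89.08 and 56.44 CPM and *LIN28B* *Wt1* kidneys 53.29, 55.08 and 65.29. The litters disagreed, with a within-litter log2 difference of −0.76 in litter 1 and 0.21 in litter 2, and the log2 fold change over all 6 kidneys was −0.47 (adjusted p = 0.285 by edgeR). Among *let-7* mice WT kidneys had 86.57, 67.62 and 83.24 CPM and the KO kidneys 85.68, 51.74 and 47.37. KO kidney 1 lay within the WT range and the other two KO kidneys below it, with a log2 fold change of −0.36 (interval −0.92 to 0.18). *Scnn1g* passed p below 0.01 without KO kidney 1 in the *let-7* experiment (log2 fold change −0.69) and without control kidney 3 in the *LIN28B* experiment (−0.65). Over all genes 1296 passed in the first of these fits (423 with all kidneys) and 892 in the second (1158 with all kidneys).

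Because the subunits form 1 channel, their ratios were taken within each kidney, per kb of transcript. *Scnn1a* per *Scnn1b* was 0.302, 0.185 and 0.223 in *LIN28B* controls and 0.122, 0.157 and 0.217 in *LIN28B* *Wt1* kidneys, which overlapped (exact permutation test, two-sided, p = 0.2). The same ratio was 0.221, 0.287 and 0.222 in *let-7* WT and 0.156, 0.164 and 0.2 in *let-7* KO kidneys. There all KO kidneys were below all WT kidneys (exact permutation p = 0.1, the smallest that 3 against 3 allows). *Scnn1g* per *Scnn1b* overlapped in both experiments. These were among 8 ratios taken in each model and chosen with the data known, and none could reach p below 0.05.

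*Hsd11b2* stood lower in both mutants. *LIN28B* controls had 79.2, 77.49 and 73.37 CPM and *LIN28B* *Wt1* kidneys 54.12, 46.08 and 61.49. The groups did not overlap, but the log2 fold change of −0.51 (SE 0.16, interval −0.86 to −0.15) lay just outside the threshold (adjusted p = 0.141 by edgeR). The *let-7* WT kidneys had 91.01, 116.5 and 75.07 CPM and the *let-7* KO kidneys 61.77, 53.62 and 35.21. Here the gene passed p below 0.01 and fell by 0.91 on the log2 scale (SE 0.25, interval −1.47 to −0.35, adjusted p = 0.362 by edgeR), to 0.531 of the WT level. Every KO kidney was below every WT kidney, and the within-litter differences were −0.84 and −1.09. The *let-7* call was lost without WT kidney 1 (log2 fold change −0.94), WT kidney 2 (−0.72), KO kidney 2 (−0.96) or KO kidney 3 (−0.71). In the *LIN28B* experiment it passed p below 0.01 without *LIN28B* *Wt1* kidney 3 (−0.61). In that fit 2509 of all genes passed, against 1158 with all kidneys.

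**Figure D2:**
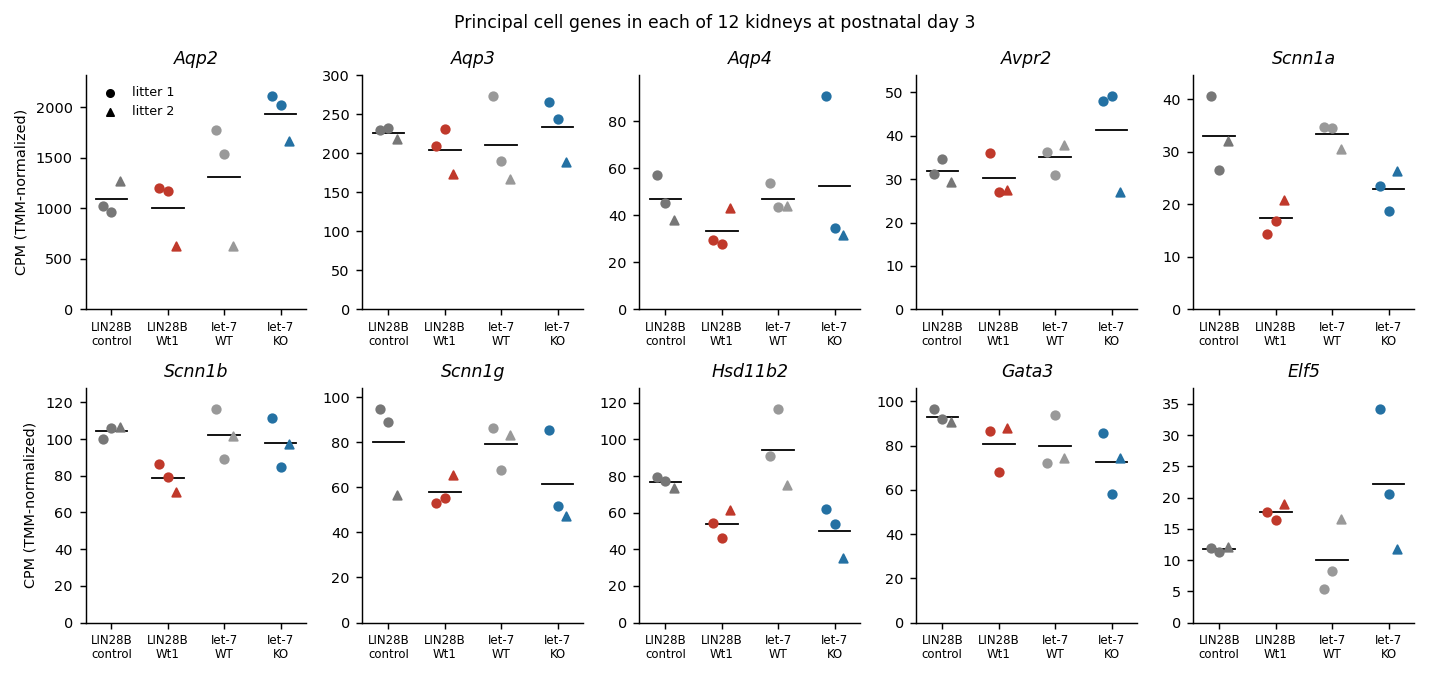
Level of each principal cell gene (y axis, TMM-normalized CPM, starting at 0) in every kidney of the 4 groups, with circles for litter 1, triangles for litter 2 and a line at the group mean. *Scnn1a* and *Hsd11b2* sit below their controls in every *LIN28B* *Wt1* and *let-7* KO kidney, whereas *Aqp2* is at 627.7 CPM in 1 *LIN28B* *Wt1* kidney and at 627.2 CPM in 1 *let-7* WT kidney, far below the other kidneys of those groups.

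*Aqp2*, the vasopressin-regulated apical water channel, did not pass the threshold in either model. *LIN28B* controls had 1025, 965 and 1268 CPM and *LIN28B* *Wt1* kidneys 1200, 1166 and 627.7. The log2 fold change was −0.12 (interval −0.63 to 0.39, adjusted p = 0.846 by edgeR), and the direction depended on the litter, with 0.25 in litter 1 and −1.01 in litter 2. Without *LIN28B* *Wt1* kidney 3 the log2 fold change was 0.13. In the *let-7* experiment WT kidneys had 1776, 1532 and 627.2 CPM and KO kidneys 2111, 2024 and 1669. KO kidneys were above WT kidneys with the same litter number in both litters, by 0.33 and 1.41. The log2 fold change was 0.56 (SE 0.32, interval −0.14 to 1.25, adjusted p = 0.554 by edgeR). Without WT kidney 3 it was 0.22.

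The kidneys also differed in how transcript length related to signal. *Aqp2* has the shortest transcript of the 10 genes (1419 bases, against a median of 3250 over genes tested in the *LIN28B* experiment). For each kidney the deviation of all genes from the mean of the 6 kidneys of its experiment was regressed on log2 transcript length, and the slope is the log2 change per doubling of length. The highest slope in the *let-7* experiment was 0.167, in WT kidney 3, and *LIN28B* *Wt1* kidney 3 had 0.089, against −0.093 and −0.082 in the other *LIN28B* *Wt1* kidneys. The other *let-7* WT kidneys had 0.079 and −0.048, and the *let-7* KO kidneys 0.048, −0.103 and −0.143. *LIN28B* control kidney 1 had a slope of 0.093 with *Aqp2* at 1025 CPM and *let-7* WT kidney 1 had 0.079 with 1776 CPM. Among the KO kidneys the highest slope went with the highest *Aqp2* value and the lowest slope with the lowest. The part of the slope in the *Aqp2* values of single kidneys was not tested. With the slope as a covariate, a fit added after the data were seen, *Aqp2* had a log2 fold change of −0.41 in *LIN28B* *Wt1* kidneys (adjusted p = 0.0467 by edgeR) and of 0.38 in *let-7* KO kidneys (adjusted p = 0.825). *Aqp2* thus passed in the *LIN28B* experiment with that covariate and not without it. It was not alone, since *Scnn1b* had −0.46 in the same fit (adjusted p = 0.0433 by edgeR). Over all genes 1711 passed p below 0.01 with the covariate and 1158 without it.

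**Figure D3:**
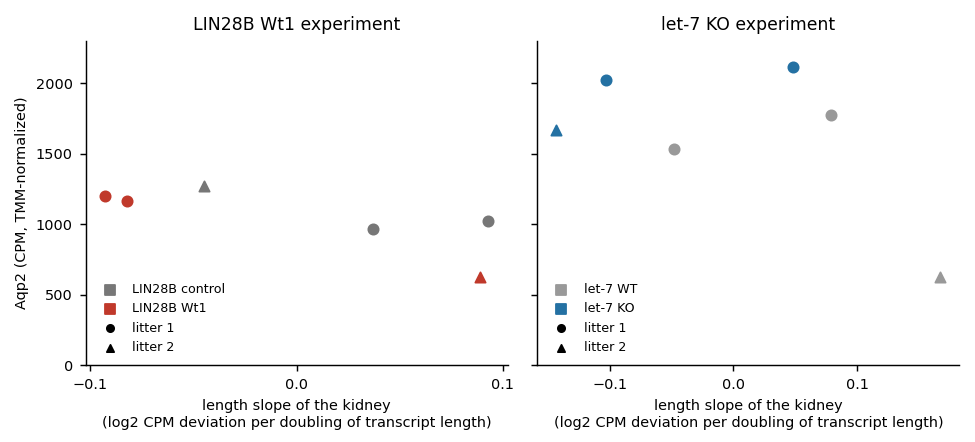
*Aqp2* level (y axis, TMM-normalized CPM) against the transcript length slope of the same kidney (x axis, log2 CPM deviation per doubling of transcript length), for the *LIN28B* and the *let-7* experiment, with circles for litter 1 and triangles for litter 2. The kidneys at 627.7 and 627.2 CPM have slopes of 0.089 and 0.167, and the slope of each kidney is relative to its own experiment.

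*Aqp3*, a basolateral water and glycerol channel, varied little. It was between 217.9 and 231.7 CPM in *LIN28B* controls, 173.4 and 230.7 in *LIN28B* *Wt1*, 166.8 and 273.4 in *let-7* WT and 189.2 and 265.7 in *let-7* KO kidneys. The log2 fold changes were −0.14 (interval −0.45 to 0.17) and 0.15 (−0.34 to 0.63). *Aqp3* thus did not pass the threshold in either model, and changes within these intervals remain possible with 3 kidneys a group.

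*Aqp4*, the other basolateral water channel, had 57.13, 45.04 and 38.16 CPM in *LIN28B* controls and 29.56, 27.9 and 43.04 in *LIN28B* *Wt1* kidneys. The 2 litter 1 mutants were below all controls and the litter 2 mutant was above the litter 2 control (log2 fold change −0.48, adjusted p = 0.315 by edgeR). Without that mutant, *LIN28B* *Wt1* kidney 3, it was −0.70 and passed p below 0.01, as did 2509 of all genes (1158 with all kidneys). WT kidneys of the *let-7* experiment had 53.8, 43.42 and 43.89 CPM and the KO kidneys 90.79, 34.54 and 31.66. KO kidney 1 alone was above all WT kidneys, and without it the log2 fold change went from 0.15 to −0.52.

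*Avpr2*, the vasopressin receptor gene, had 31.25, 34.69 and 29.38 CPM in *LIN28B* controls and 36.01, 27.01 and 27.5 in *LIN28B* *Wt1* kidneys. The groups overlapped, with a log2 fold change of −0.07 (interval −0.50 to 0.36). The *let-7* WT kidneys had 36.29, 30.96 and 37.77 CPM and the KO kidneys 47.95, 49.2 and 27.09. Both litter 1 KO kidneys were above all WT kidneys and the litter 2 KO kidney was below them, with within-litter differences of 0.54 and −0.48. *Avpr2* lies inside *Arhgap4* on the opposite strand and shares 2347 exonic bases with it. The strand setting of the counting was not given, so how reads over the shared bases were assigned is not known. *Arhgap4* was listed between 0.165 and 4.88 CPM, which sets no bound on the uncertainty of the *Avpr2* values.

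*Gata3* and *Elf5*, the transcription factors of the set, differed in direction. *Gata3* was 96.45, 91.84 and 90.6 CPM in *LIN28B* controls and 86.44, 67.88 and 88.05 in *LIN28B* *Wt1* kidneys. Although the groups did not overlap, the log2 fold change of −0.20 (interval −0.54 to 0.14, adjusted p = 0.551 by edgeR) did not pass. In the *let-7* experiment *Gata3* was between 72 and 93.6 CPM in WT and between 58.09 and 85.48 in KO kidneys (−0.15, interval −0.61 to 0.31).

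*Elf5* was the only one of the 10 with a higher level in every *LIN28B* *Wt1* kidney than in any control. The controls had 11.88, 11.27 and 12.13 CPM and the *LIN28B* *Wt1* kidneys 17.69, 16.42 and 19. The log2 fold change was 0.59 (SE 0.22, interval 0.11 to 1.08, adjusted p = 0.184 by edgeR), and 0.56 and 0.65 within litters, but did not pass the threshold. The *let-7* WT kidneys had 5.329, 8.276 and 16.54 CPM and the KO kidneys 34.15, 20.58 and 11.75. The litters went opposite ways, with 1.997 in litter 1 and −0.49 in litter 2, and the log2 fold change was 1.14 (SE 0.48, adjusted p = 0.434 by edgeR). Without WT kidney 3 it was 1.70 (adjusted p = 0.726 by edgeR) and with the length covariate 1.79 (adjusted p = 0.501 by edgeR). Both were past p below 0.01, as were 211 and 281 of all genes in these fits (423 in the main fit).

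*Elf5* also differed from *Gata3* within kidneys. The ratio of *Elf5* to *Gata3* per kb was 0.121, 0.121 and 0.132 in *LIN28B* controls and 0.202, 0.238 and 0.213 in *LIN28B* *Wt1* kidneys, without overlap (exact permutation p = 0.1). It overlapped in the *let-7* experiment. *Hsd11b2* per *Aqp2* was 0.0395, 0.0586 and 0.0923 in *let-7* WT and 0.0226, 0.0204 and 0.0163 in *let-7* KO kidneys, also without overlap (exact permutation p = 0.1). In *LIN28B* *Wt1* kidneys the same ratio ranged from 0.0305 to 0.0755 and overlapped the controls.

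**Figure D4:**
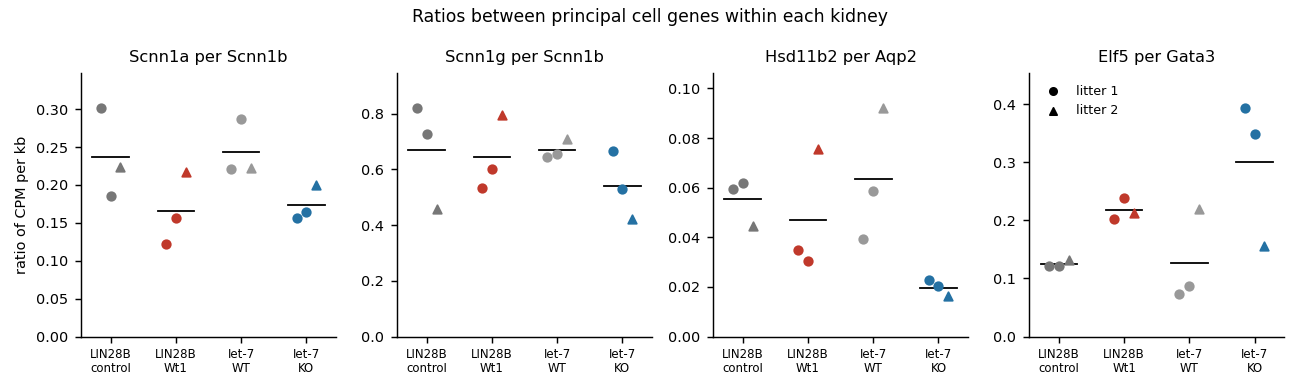
Ratios between principal cell genes within each kidney (y axis, ratio of CPM per kb, starting at 0) in the 4 groups, with circles for litter 1, triangles for litter 2 and a line at the group mean. The 3 *let-7* KO kidneys lie between 0.0163 and 0.0226 in *Hsd11b2* per *Aqp2*, below all *let-7* WT kidneys, and *Elf5* per *Gata3* is above all controls in the 3 *LIN28B* *Wt1* kidneys.

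Counted over the set, groups did not overlap for 5 of 10 genes in the *LIN28B* experiment (*Scnn1a*, *Scnn1b*, *Hsd11b2* and *Gata3* lower, *Elf5* higher), against 23.9% of all genes tested. They did not overlap for 2 of 10 in the *let-7* experiment (*Scnn1a* and *Hsd11b2*, both lower), against 16.8% of all genes. Mutant and control kidneys were apart in the same direction within both litters for the same 5 genes in the *LIN28B* experiment (30.2% of all genes) and for 3 in the *let-7* experiment (22.8% of all genes), where *Aqp2* joined as higher. With 10 genes these shares are descriptions.

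The difference between the models was tested as an interaction in 1 fit of all 12 kidneys. None of the 10 genes passed p below 0.01 by edgeR's quasi-likelihood test, which 1.55% of all 16598 genes did, and none passed an adjusted p below 0.05 (0.00602% of all genes). At the unadjusted p below 0.05 it was 0 of 10 (6.27% of all genes), and DESeq2 gave 0 of 10 at p below 0.01 (2.55% of all genes). The effect in the *LIN28B* experiment minus that in the *let-7* experiment was −0.69 for *Aqp2* (interval −1.63 to 0.25), −0.40 for *Scnn1a* (−1.08 to 0.28) and 0.39 for *Hsd11b2* (−0.25 to 1.03). The calls of *Scnn1a* in one model and of *Hsd11b2* in the other were therefore not shown to be particular to either.

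The control groups differ in strain and experiment, and no difference between them was detected for the 10 genes. None passed p below 0.01 between *let-7* WT and *LIN28B* controls by edgeR (3.32% of all genes did) or an adjusted p below 0.05 (0.627%), with 0 of 10 at the unadjusted p below 0.05 (9.58% of all genes) and 0 of 10 by DESeq2 at p below 0.01 (5.18% of all genes). The log2 differences ranged from −0.22 (*Elf5*) to 0.30 (*Hsd11b2*), and all 10 groups of values overlapped (the share over all genes was not computed). For *Scnn1a* the difference was 0.01 (interval −0.47 to 0.50). Wider intervals were those of *Aqp2* (−0.39 to 0.94), *Aqp4* (−0.70 to 0.73) and *Elf5* (−1.07 to 0.63). True differences anywhere within these intervals remain possible with 3 kidneys a group.

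Genes of the same pathways were read from lists written by name. Of 24 genes of vasopressin and cyclic AMP signalling, 2 were lower at p below 0.01 in *LIN28B* *Wt1* kidneys and none higher (median −0.12), which is 8.33% of the list, near the 7.33% of all genes. They were *Ptger3*, a prostaglandin E2 receptor that opposes vasopressin, with a log2 fold change of −1.59 (adjusted p = 0.0349 by edgeR), and *Myo5b*. *Myo5b*, a motor of recycling vesicles, had −0.65 (adjusted p = 0.0948 by edgeR). In *let-7* KO kidneys 1 was lower, *Akap11*, an anchor of protein kinase A, with −0.96 (adjusted p = 0.362 by edgeR). That is 4.17% of the list (median −0.16) against 2.73% of all genes. These shares are near the background and are not a result about the pathway.

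Of 22 genes of aldosterone action and ENaC regulation, 5 were lower and none higher in *LIN28B* *Wt1* kidneys (22.7% against 7.33% of all genes, median −0.27). *Sgk1*, the aldosterone-induced kinase that keeps ENaC at the membrane, had 206, 223 and 190 CPM in controls and 109, 117 and 143 in *LIN28B* *Wt1* kidneys. The groups did not overlap, and *Sgk1* fell by 0.75 on the log2 scale (adjusted p = 0.0496 by edgeR). Lower genes of this list also included *Atp1b1*, a sodium pump subunit (−0.56), the potassium channel *Kcnj1* (−0.97) and the kinase *Wnk4* (−0.64), which other tubule segments also express. Their adjusted p was 0.0573, 0.0693 and 0.129 by edgeR. In *let-7* KO kidneys 0 of 21 passed by edgeR, against 2.73% of all genes (median −0.04), and *Sgk1* had a log2 fold change of −0.41 with overlapping groups. *Nr3c2*, the receptor itself, was low, between 2.23 and 6.24 CPM in all 12 kidneys, with log2 fold changes of −0.10 and −0.43. *Fxyd4*, a sodium pump regulator of the collecting duct, had −0.15 and 0.41, neither of which passed.

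Of 25 genes of ureteric and collecting duct identity, 1 was higher and 2 lower in *LIN28B* *Wt1* kidneys (12% against 7.33% of all genes, median −0.02). *Ret*, the receptor of ureteric tip cells, had 9.79, 6.65 and 19.9 CPM in controls and 28.4, 19.4 and 52.2 in *LIN28B* *Wt1* kidneys, with a log2 fold change of 1.47 (adjusted p = 0.131 by edgeR). Its groups overlapped over all kidneys but not within litters. *Calb1*, a calcium-binding protein of distal and collecting tubules, was lower in both models (−0.73 and −0.88, adjusted p = 0.0573 and 0.362 by edgeR). *Npnt*, an adhesion ligand of the ureteric bud, was lower in *LIN28B* *Wt1* kidneys (−0.68, adjusted p = 0.063 by edgeR). At p below 0.01 the keratins *Krt18* (0.87) and *Krt7* (0.73) were higher in *let-7* KO kidneys and *Calb1* and the transcription factor *Tfcp2l1* (−0.54) lower. That is 16% of the list against 2.73% of all genes (median 0.08), and each of these genes had an adjusted p = 0.362 by edgeR. *Hoxb7*, a general ureteric gene, had 0.16 and 0.17 and did not pass in either, like *Gata3*.

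Lists of neighbouring tubule cells are given beside the principal cell genes as counts and medians, and the lists were not tested against each other. In *LIN28B* *Wt1* kidneys 7.33% of all genes passed p below 0.01. Of 14 intercalated cell genes, which share the collecting duct with principal cells, 6 were lower there (42.9%, median −0.63). Among them was the proton pump subunit *Atp6v1b1* (−1.20, adjusted p = 0.0218 by edgeR). The summed level of the list was 1050 to 1060 CPM in controls and 614 to 753 in *LIN28B* *Wt1* kidneys. Of 10 loop and distal tubule genes 5 were lower (50%, median −0.84), led by the sodium chloride cotransporter *Slc12a3* (−1.95). Some genes of this list are in cells that also express ENaC and *Hsd11b2*. Of 12 proximal tubule genes 7 were lower (58.3%, median −0.90), while *Lrp2* had −0.37. In *let-7* KO kidneys the medians were −0.32, −0.27 and −0.34, with 0, 0 and 3 genes lower. The 3 are 25% of the proximal tubule list, against 2.73% of all genes. The part of a change in tubule composition in the values of *Scnn1a* and *Hsd11b2* was not tested.

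Inner medulla and urothelium genes mark the papilla and the lining of the renal pelvis, which a whole kidney holds in small and variable amounts. In *LIN28B* *Wt1* kidneys 4 of 13 were lower (30.8% against 7.33% of all genes, median −1.26). They were the urea transporter *Slc14a2* (−2.02, adjusted p = 0.00804 by edgeR) and the uroplakins *Upk1a*, *Upk1b* and *Upk3a* (adjusted p = 0.0492, 0.121 and 0.124 by edgeR). The summed level of the list was 215 to 355 CPM in controls and 54.7 to 150 in *LIN28B* *Wt1* kidneys. In the *let-7* experiment 0 of 14 passed by edgeR, against 2.73% of all genes (median 0.29), with sums of 113 to 216 CPM in WT and 173 to 230 in KO kidneys. Of the defining urothelial markers, *Upk1a*, *Upk2* and *Upk3a* were detected in all 12 kidneys and *Krt5* was at 0 in *LIN28B* *Wt1* kidney 2. The lowest *Upk3a* level of the *LIN28B* experiment, 8.97 CPM, and its lowest *Aqp2* level fell in the same kidney, *LIN28B* *Wt1* kidney 3. Their part in the principal cell results was not tested.

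**Figure D5:**
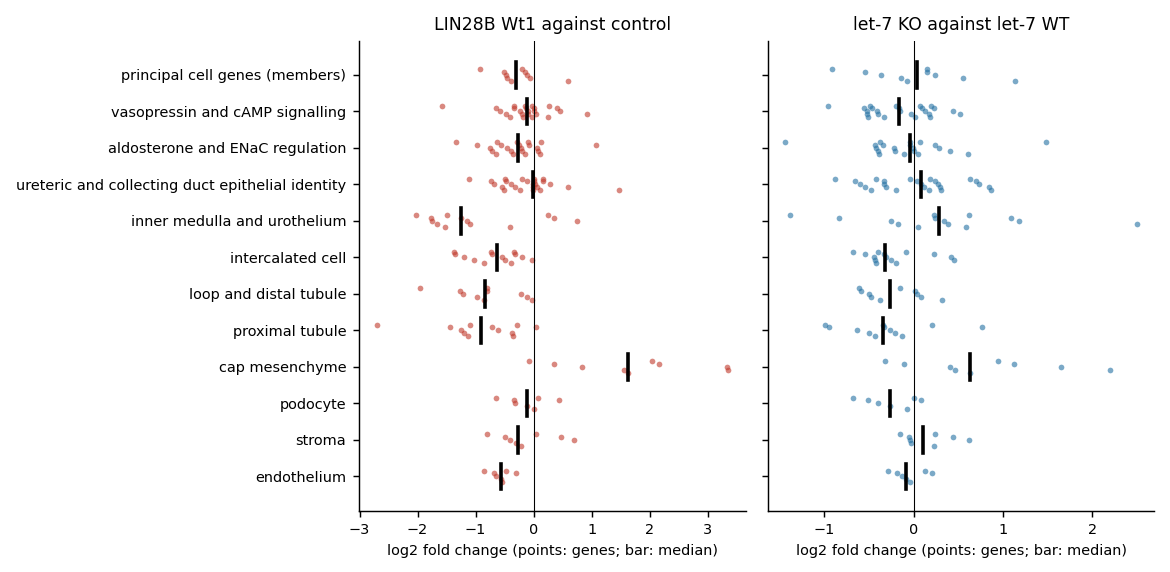
Log2 fold changes (x axis) of the 10 principal cell genes and of the genes of 11 other lists (rows), in *LIN28B* *Wt1* against control (red) and *let-7* KO against *let-7* WT (blue), with 1 point per gene and a black bar at each median. In *LIN28B* *Wt1* kidneys the principal cell median of −0.30 lies nearer to 0 than those of intercalated (−0.63), loop and distal (−0.84) and proximal tubule genes (−0.90). The same holds for inner medulla and urothelium (−1.26), endothelium (−0.56) and cap mesenchyme (1.63). Nearer to 0 are ureteric and collecting duct identity (−0.02), podocyte (−0.11), vasopressin (−0.12), stroma (−0.26) and aldosterone genes (−0.27). The lists were not tested against each other.

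Finally, the genes most like *Aqp2* in their pattern over the 12 kidneys were found from the root mean square difference of log2 CPM after centring each gene, over 16588 other genes. The nearest were *Tagln* (0.209), *Rarres2* (0.229) and *Myl9* (0.23), against a spread of *Aqp2* about its own mean of 0.561. *Tagln* and *Myl9* are smooth muscle genes, and their longest transcripts have 1595 and 1128 bases, like *Aqp2* shorter than the median gene tested. The kidneys share library preparation and depth differences, so this likeness is a description of 12 libraries.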

How the data were processed

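RNA of single kidneys was extracted with Trizol, and libraries from the low-input SMARTer kit were read on an Illumina HiSeq machine. Per the submitters' processing notes, cutadapt, TopHat2 2.0.9, Bowtie2, SAMtools 0.1.19 and HTSeq were used with the mm10 build. The authors deposited raw read counts per gene symbol, 1 table per kidney. The annotation and strand setting are not given in the sources used here. Groups and litters were taken from the labels.

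Each model was fitted alone, 3 against 3 kidneys, in edgeR 4.0.16 (R 4.3.3) with filterByExpr (minimum count 10, minimum total 15), TMM scaling and its quasi-likelihood F test, and p-values were adjusted by Benjamini-Hochberg over all genes tested. The difference between models and between control groups came from 1 fit of 12 kidneys. Intervals are 95%. CPM values are on TMM scaling over all 12 kidneys, and those per kb use the longest GENCODE M21 transcript, as do the gene and 3′ UTR positions (GRCm38). Scripts were tested on simulated data. Litter numbers were taken to mark shared litters across the groups of a model. The mean correlation of deviations was −0.04 within and 0.05 between litters in the *LIN28B* experiment, and −0.01 and 0.01 in the *let-7* experiment. Deviations from group means cancel within each group, so these means offset each other and cannot decide whether litters were shared. Alternatives were DESeq2 1.42.0, upper-quartile scaling, no filter, litter as a replicate block, 1 fit of 12 kidneys, an adjusted threshold, leaving out each kidney and a length covariate added after seeing the data.

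The 10 genes and all lists were chosen with earlier results of these data known. From each other list, genes at p below 0.01 in either model could be named (at most 5 a list and model), beside *Nr3c2*, *Sgk1*, *Fxyd4*, *Ret*, *Hoxb7*, *Calb1*, *Six2* and *Lrp2* in any case, and the 3 genes most like *Aqp2*. One gene that the rule allowed is not reported here. Mouse *Lin28b*, *Mirlet7d*, *Arhgap4*, *Upk2* and *Krt5* were named as checks after their values were seen. P-values measure the spread between kidneys of 2 litters a group. The floor of 3 counts covers counting error only.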

Additional observations from a re-analysis of the deposited data

How the results depend on the processing

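With 3 kidneys a group and 2 litters, calls near the threshold changed with the setting. In *LIN28B* *Wt1* against control, 1 principal cell gene was called at p below 0.01 (1158 of all genes). It was 2 with DESeq2 (1726 of all genes), 2 with upper-quartile scaling (1112) and 2 without the filter (1236), *Scnn1a* and *Hsd11b2* each time. The length covariate gave 4 (*Aqp2*, *Scnn1a*, *Scnn1b* and *Hsd11b2*), with 1711 of all genes. The adjusted threshold gave 0 (194 of all genes). Leaving out 1 kidney gave 0 to 3 (515 to 2509 of all genes, the most without *LIN28B* *Wt1* kidney 3). In *let-7* KO against WT 1 was called (423 of all genes), against 0 with the adjusted threshold (3 of all genes). Leaving out 1 kidney gave 0 to 2 (162 to 1296 of all genes, the most without KO kidney 1). With the length covariate the 1 gene was *Elf5* in place of *Hsd11b2* (−0.92), with 281 of all genes called. With litter as a replicate block each model still had 1 gene called, against 904 and 288 of all genes. The log2 fold changes were −0.95 for *Scnn1a* in *LIN28B* *Wt1* and −0.93 for *Hsd11b2* in *let-7* KO kidneys. The replicate block changed no other call among the 10 genes. The difference between models gave 0 in all settings run (165 to 461 of all genes). The control comparison also gave 0 in all settings run (551 of all genes in the main fit and 859 with DESeq2). With these shares, 0 of 10 is near the background. The direction of single genes turned in few settings: *Scnn1b* in *let-7* KO with the length covariate (0.088), and between control groups *Aqp4* (−0.007) and *Scnn1a* (−0.004) with upper-quartile scaling and *Scnn1g* (0.006) with the replicate block. Leaving out 1 kidney gave log2 fold changes of −0.27 to 0.13 for *Aqp2* and −0.22 to 0.021 for *Avpr2* in *LIN28B* *Wt1*, and of −0.52 to 0.41 for *Aqp4* and −0.18 to 0.025 for *Scnn1b* in *let-7* KO kidneys. For the difference between models it gave −0.89 to 0.006 for *Aqp4*, −0.31 to 0.19 for *Scnn1g* and −0.20 to 0.055 for *Gata3*. Between control groups it gave −0.009 to 0.61 for *Aqp2*, −0.35 to 0.034 for *Aqp3*, −0.12 to 0.18 for *Aqp4*, −0.12 to 0.19 for *Scnn1a*, −0.12 to 0.071 for *Scnn1b*, −0.21 to 0.13 for *Scnn1g* and −0.79 to 0.077 for *Elf5*. Of all settings for single genes 510 kept their direction and side of the threshold, 30 turned, 12 newly passed it and 8 no longer did; apart from the settings' own construction the cause was not tested.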

Other observations

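Other compartments of the same kidneys gave the following counts at p below 0.01. In *LIN28B* *Wt1* kidneys, where 7.33% of all genes were called, 7 of 9 cap mesenchyme genes were higher (77.8%, median 1.63). *Six2* was at 10.2 to 15 CPM in controls and 108 to 168 in mutants. Of the endothelial genes 5 of 7 were lower (71.4%, median −0.56), 1 of 8 stroma genes was lower (12.5%) and 0 of 7 podocyte genes were called by edgeR. In *let-7* KO kidneys 1 of 9 cap mesenchyme genes was higher (11.1% against 2.73% of all genes). It was *Gdnf* (2.20, adjusted p = 0.362 by edgeR), the ligand of *Ret*, which itself had a log2 fold change of 0.85 with overlapping groups. *Six2* there was 2.6 to 9.15 CPM in WT and 8.11 to 18.8 in KO kidneys. No podocyte, stroma or endothelial gene was called in *let-7* KO kidneys by edgeR. Of 6 blood genes 4 were listed at 0 in all groups, and the other two were not called in either model.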
